A study of Mus musculus with 47 samples.

Results

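Azgp1 and Dhrsx were the 2 genes, of 23416 measured in every library, that were followed here through liver and spermatozoa of male mice. They were chosen from these same data because Azgp1 was near 0 in the spermatozoa of one generation and Dhrsx near 0 in the spermatozoa of another, so their levels in spermatozoa are given as a description and without a test wherever that choice used them. Ctrl-F1 and KO-F1 males were fathered through intracytoplasmic sperm injection (ICSI), with testicular sperm of wild-type or Scml2-KO C57BL/6 males and oocytes of BDF1 females, and their background is labelled BDF2. KO-F2 males came from natural mating of F1 males with C57BL/6 females, and their background is labelled BDF3. All were sampled at 8 to 12 weeks. Scml2, a Polycomb gene of the germline, lies on the X chromosome, so sons of a knockout father receive an intact copy from their mother, and no group analysed here carried the deletion. There were 2 libraries in each of 5 groups: Ctrl-F1 and KO-F1 liver and Ctrl-F1, KO-F1 and KO-F2 spermatozoa of the cauda epididymis. No KO-F2 liver and no Ctrl-F2 library was analysed here. Same-numbered replicates of different groups of a tissue are different animals. The study's methods call the 2 replicates of a group independent and biological, and the labels do not say how they were made. The p-values measure only the spread between these libraries.

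Azgp1 encodes zinc-alpha-2-glycoprotein, a secreted protein with the fold of an MHC class I molecule. It is made by the liver and by several secretory epithelia and is known as a factor that mobilizes fat. Dhrsx encodes a short-chain dehydrogenase/reductase that acts in the synthesis of dolichol, the lipid on which the sugar chains of N-glycoproteins are assembled. In humans its counterpart lies in the pseudoautosomal region shared by the X and Y chromosomes.

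The position of these genes in the mouse assembly differed in kind. Azgp1 lies on the forward strand of chromosome 5, at chr5:137981521-137990233 in GRCm38.p6, and its 1 curated RefSeq transcript has 4 exons that add up to 1315 bases. Dhrsx is not placed on an assembled chromosome. RefSeq annotates it on a scaffold of 66673 bases that is assigned to chromosome 4 but not localized on it, from base 14351 to base 36213 of the scaffold on the forward strand, and its transcript of 7 exons is 1926 bases long. No other gene listed in the count tables lies on that scaffold. The region around the start of Azgp1, from 250 bases before it to 50 after, is shown because it precedes the transcript that had no count in KO-F2 spermatozoa. It is taken from the RefSeq promoter table (GRCm38.p6, forward strand, chr5:137981271-137981570), and capitals mark the 1 match to a motif searched:
Azgp1 promoter: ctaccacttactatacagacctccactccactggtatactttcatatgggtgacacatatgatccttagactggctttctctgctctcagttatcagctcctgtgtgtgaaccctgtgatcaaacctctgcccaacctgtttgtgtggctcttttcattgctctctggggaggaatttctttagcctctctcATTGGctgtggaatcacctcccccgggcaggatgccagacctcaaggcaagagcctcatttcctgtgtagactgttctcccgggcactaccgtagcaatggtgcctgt

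That match is CCAAT, read on the reverse strand, and begins at position -58 from the transcription start. CCAAT occurred on either strand in 37.4% of the 32851 promoters of this length in the table. The letters TATAAA (in 13.6% of promoters), the GC box GGGCGG (in 35.7%) and the E-box CACGTG (in 7.15%) were not in this window on either strand. The window held 3 CpG dinucleotides, against a median of 7 over all promoters. The Dhrsx promoter is not in this table.

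The labelled tissues carried their defining markers. All 14 hepatocyte markers (Alb, Apoa1, Ttr and others) had at least 10 counts in every liver library, and at least 15 of 16 late spermatogenesis markers (Prm1, Tnp1, Odf1 and others) did in every sperm library. Library totals were 11339729 to 14278900 counts in liver, 1503733 to 2778171 in F1 spermatozoa and 8384266 to 11462105 in KO-F2 spermatozoa. At these depths, 3 counts, used here as the detection limit, amount to 0.210 to 0.265 CPM (a gene's counts scaled to 1e6 counts of the library) in liver, 1.08 to 2.00 CPM in F1 spermatozoa and 0.262 to 0.358 CPM in KO-F2 spermatozoa. These limits cover counting error only, since PCR reads are not independent molecules, while the intervals of the edgeR fits given further on rest on the spread between libraries. Scml2 itself had 0 counts in all 4 livers and 0 to 18 counts in the sperm libraries, too few for a comparison.

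In liver, Azgp1 was among the most abundant transcripts in both groups. The Ctrl-F1 livers held 26719 and 22792 counts of it and the KO-F1 livers 24037 and 23945, and it ranked between 61 and 80 among all genes of the library. These are 1871 and 1625 CPM for Ctrl-F1 against 1966 and 2112 CPM for KO-F1, with means of 1748 ± 174 and 2039 ± 103 CPM (SD, n = 2 each). Both KO-F1 livers were higher than both Ctrl-F1 livers, but 41.6% of the 11505 genes tested showed 2 groups without overlap on the scale used for the test. The log2 fold change was 0.28 (SE 0.19, 95% interval -0.15 to 0.72), and its adjusted p was 0.656 (quasi-likelihood F test of edgeR, adjusted by Benjamini-Hochberg). In bulk samples, fewer cells of a type and less RNA per cell cannot be told apart.

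Dhrsx was present in liver at a moderate level. The Ctrl-F1 livers held 252 and 199 counts and the KO-F1 livers 207 and 215, that is 17.6 and 14.2 CPM against 16.9 and 19.0 CPM. The groups overlapped. The log2 fold change was 0.23 (SE 0.21, 95% interval -0.25 to 0.72), and the adjusted p was 0.750 in the same edgeR test. At the thresholds used, a 2-fold change with an adjusted p under 0.01, neither member was called, nor was any other gene in liver (0% of genes called by edgeR, with 1083 at an unadjusted p under 0.05 and 20 called by DESeq2). Per kilobase of exon, the level of Azgp1 in liver (1440 CPM per kilobase) was 164 times that of Dhrsx (8.79 CPM per kilobase).

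In spermatozoa the 2 genes had opposite patterns, and for both the divide lay between the F1 and the KO-F2 libraries. For Azgp1 the Ctrl-F1 libraries held 111 and 32 counts, the KO-F1 libraries 39 and 55, and both KO-F2 libraries 0. Dhrsx had 0 counts in both Ctrl-F1 libraries, 0 in both KO-F1 libraries, and 490 and 326 in KO-F2. The absence of Dhrsx therefore covered all 4 F1 sperm libraries and not the Ctrl-F1 libraries alone. By mean CPM, Azgp1 was highest in KO-F1 liver, followed by Ctrl-F1 liver, the sperm of Ctrl-F1, of KO-F1 and of KO-F2. Dhrsx was highest in KO-F2 sperm, followed by KO-F1 and Ctrl-F1 liver, with the F1 sperm groups last. Ctrl-F1 and KO-F1 of a tissue were neighbours in both orders. Neither member was called between them where it could be tested, and Dhrsx had no count to test in F1 spermatozoa.

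**Figure D1:**
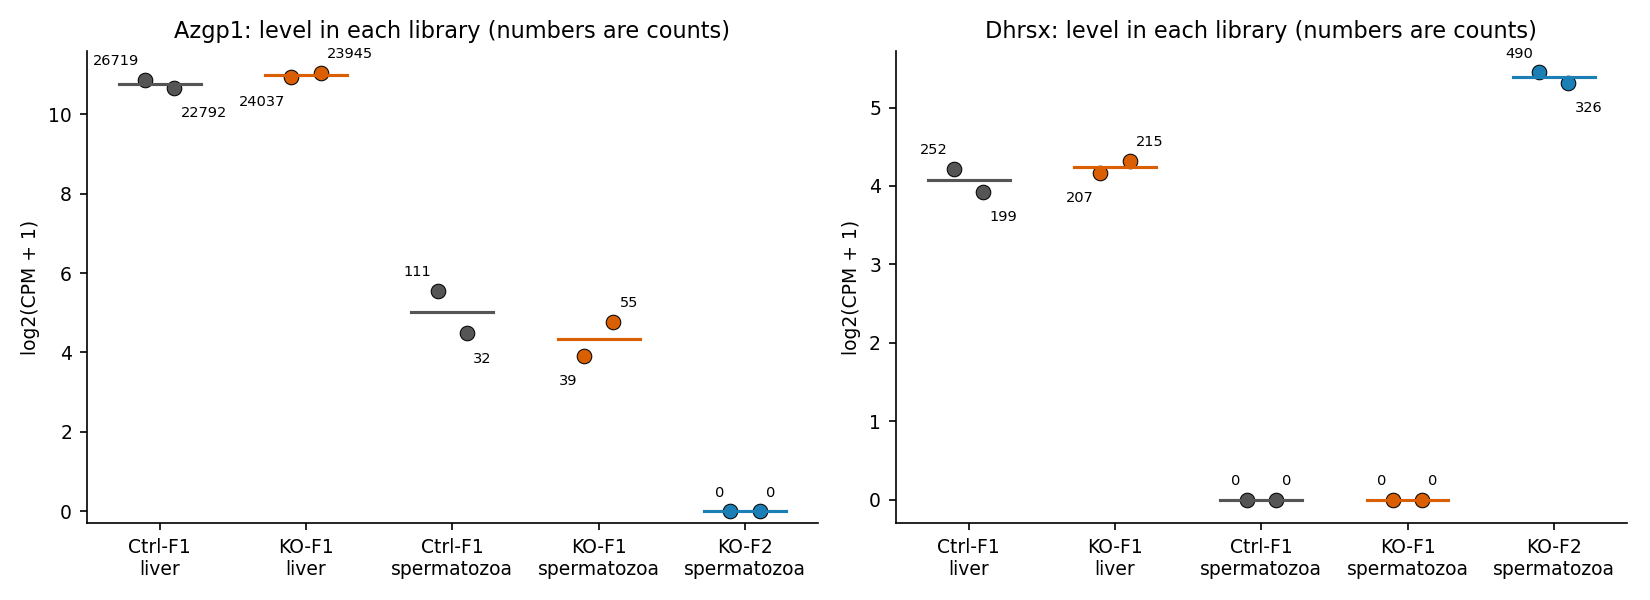
Level of Azgp1 (left) and Dhrsx (right) as log2(CPM + 1) in each of the 10 libraries, by group; points are libraries, lines are means of the 2 libraries on this scale, and the numbers beside the points are counts. Azgp1 is at 0 in the 2 KO-F2 sperm libraries and Dhrsx in the 4 F1 sperm libraries, while both are present in all 4 livers.

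Between the F1 groups, the Azgp1 level in spermatozoa was 45.7 and 21.3 CPM for Ctrl-F1 against 14.0 and 26.4 CPM for KO-F1, with means of 33.5 ± 17.3 and 20.2 ± 8.72 CPM (SD, n = 2 each). The 2 groups overlapped on this scale. After TMM normalization over the 6 sperm libraries, which rescales each library by its typical gene, they were 47.8 and 26.9 against 11.6 and 23.5 and did not overlap. With TMM of these 2 groups alone, a different scale, 54.1% of the 10785 genes tested had groups without overlap. The log2 fold change was -1.12 (SE 0.67, 95% interval -2.68 to 0.43), and the adjusted p was 0.409 in the edgeR test. When libraries were scaled to the late spermatogenesis markers instead, an alternative added after the data were seen, the sign turned to 0.81 (adjusted p 0.393 in the same edgeR test), and the median of all genes moved to 1.89. No gene was called by edgeR in this comparison (0%), although 2105 were at an unadjusted p under 0.05 and DESeq2 called 390. Dhrsx had no counts in either group, so no fold change exists.

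KO-F2 spermatozoa were set against both F1 groups, and these comparisons share the KO-F2 libraries. A group at 0 was placed at the limit of 3 counts in each library, and the bounds are ratios of group means of TMM-normalized CPM, not fitted folds, so they move with the scaling. On that scale Azgp1 was at least 49.9-fold lower than in KO-F1 and at least 118-fold lower than in Ctrl-F1 spermatozoa, and on plain CPM, added after the data were seen, at least 65.2-fold and 108-fold lower. A bound covers only the group at 0, not the spread of the other group. With 1 library left out, the TMM ratios for Azgp1 fell as low as 33.3-fold against KO-F1 and 81.8-fold against Ctrl-F1. Dhrsx was at least 43.0-fold higher in KO-F2 than in KO-F1 and at least 22.1-fold higher than in Ctrl-F1 spermatozoa on the TMM scale, and at least 32.4-fold and 25.3-fold higher on plain CPM. Scaled to the late spermatogenesis markers, the bounds against KO-F1 became 253-fold for Azgp1 and 8.28-fold for Dhrsx, and those against Ctrl-F1 141-fold and 16.8-fold. In KO-F2 against KO-F1, edgeR called 2.31% of 13517 genes and 65.9% had groups without overlap. Against Ctrl-F1 it called 0% of 13149 genes (1960 at an unadjusted p under 0.05 and 277 called by DESeq2), and 48.1% had groups without overlap.

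At the mean KO-F2 level of Dhrsx, 40.8 ± 2.73 CPM (SD, n = 2), the F1 sperm libraries would have held 61.4 to 113 counts of it, and they held none. At the lowest F1 level of Azgp1, 14.0 CPM, the KO-F2 libraries would have held 118 and 161 counts, and they held none. In KO-F2 spermatozoa Dhrsx was 42.7 and 38.9 CPM and ranked 2171 and 2397 among all genes. Its CPM there was above that of any of the 4 livers, which were prepared with another kit.

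The counts that follow describe the values by which the 2 genes were chosen. Of 6251 genes with at least 10 counts in all 4 F1 sperm libraries, Azgp1 was the only one with 0 counts in both KO-F2 libraries. Rps18, a ribosomal protein gene, came next: Ctrl-F1 held 89 and 114 counts, KO-F1 297 and 147, and there was 1 in each KO-F2 library. Of 13513 genes with at least 10 counts in both KO-F2 libraries, 210 (1.55%) had 0 counts in all 4 F1 sperm libraries, Dhrsx among them. These 2 counts cannot be compared with each other, since the F1 sperm libraries hold fewer counts in all than the KO-F2 libraries.

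With a gene taken as absent at up to 2 CPM in both libraries of a group and present from 10 CPM in all others, 4 genes were absent only from KO-F2 spermatozoa: Azgp1, Rps18, Rpl10 and Rps16. The latter 3 encode ribosomal proteins, which have processed copies elsewhere in the genome, and reads that match several copies of such genes are not uniquely aligned. A search of the assembly for stretches of at least 75 bases with at least 90% identity found 17 other places for Rps18, 16 for Rpl10 and 6 for Rps16, covering 99.5%, 95.1% and 96.4% of the transcripts. For Azgp1 the same search found none. In Dhrsx, 53 other places matched, all within stretches that cover 7.11% of the transcript, the longest 139 bases. All 3 ribosomal protein genes were abundant in liver, at 1883 to 3055 counts, so all 4 genes were below the absence limit in KO-F2 spermatozoa and in no other group. The part of such copies in these levels was not tested. Rps7, also a ribosomal protein gene, had the opposite pattern. It had at most 1 count in any F1 sperm library, 120 and 93 in KO-F2 spermatozoa and 2478 to 2844 in the livers.

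The opposite pattern, presence in KO-F2 spermatozoa only, held for 37 genes, Dhrsx the fourth by the ratio of its lowest present level to the highest absent one. Ahead of it stood Cd79a, Ly6d and Ms4a1, and behind it came Cd5l, Mzb1, Nfam1, Icam2, Blk, Ednrb and Atp5k. Cd79a (a part of the B cell receptor), Ms4a1 (CD20, on B cells), Mzb1 (a chaperone of antibody secreting cells) and Blk (a B cell kinase) mark B lymphocytes, and Cd5l is secreted by macrophages. Unlike Dhrsx, the B cell genes were scarce in liver: Cd79a had 1 to 6 counts there and Ms4a1 0 to 5. Cd5l had 447 to 955 counts and Atp5k, a subunit gene of mitochondrial ATP synthase, 1852 to 2132 in the livers. Of 10922 genes that reached 10 CPM in at least 1 sperm library, these 37 are 0.339%, and the 4 absent only from KO-F2 are 0.0366%. For comparison, 13 genes were absent only from Ctrl-F1 and 5 only from KO-F1 spermatozoa, 3 were present only in Ctrl-F1 and 3 only in KO-F1, and none was all-or-none between the 2 liver groups. The sperm groups differ in depth, so their numbers cannot be compared directly.

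The genes whose levels were most like those of each member over the 6 sperm libraries were ranked by Pearson's r of log2(CPM + 1) among 10922 genes that reached 10 CPM. The points share libraries and depth, and these values are a description. For Azgp1 they included Scd2 (0.997), a fatty acid desaturase gene, Cdh1 (0.995), which encodes E-cadherin of epithelial junctions, Slco1a5 (0.994), an organic anion transporter gene, and Tmem30b (0.990), a gene for a subunit of lipid flippases. Slco1a5 had means of 15.1 and 13.6 CPM in Ctrl-F1 and KO-F1 and 0.544 CPM in KO-F2 spermatozoa. None of these 4 was at 0 in a KO-F2 library.

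For Dhrsx the genes most alike were Ly6d (0.9997), a surface marker of B lymphoid precursors and stratified epithelia, Cyp4f18 (0.999), a cytochrome of neutrophils, Ncf4 (0.999), a subunit of the phagocyte oxidase, Ms4a1 (0.999) and Fcrla (0.998), an Fc receptor-like gene of B cells. All 5 had 0 counts in every F1 sperm library, and their KO-F2 means ran from 11.7 to 72.9 CPM. In the 4 livers each of them had at most 22 counts, whereas Dhrsx had at least 199. A high r follows for any gene with 0 counts in the F1 libraries and a similar level in both KO-F2 libraries, whatever cell it comes from. Pisd-ps3, described further on, ranked 7 with 0.998.

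**Figure D2:**
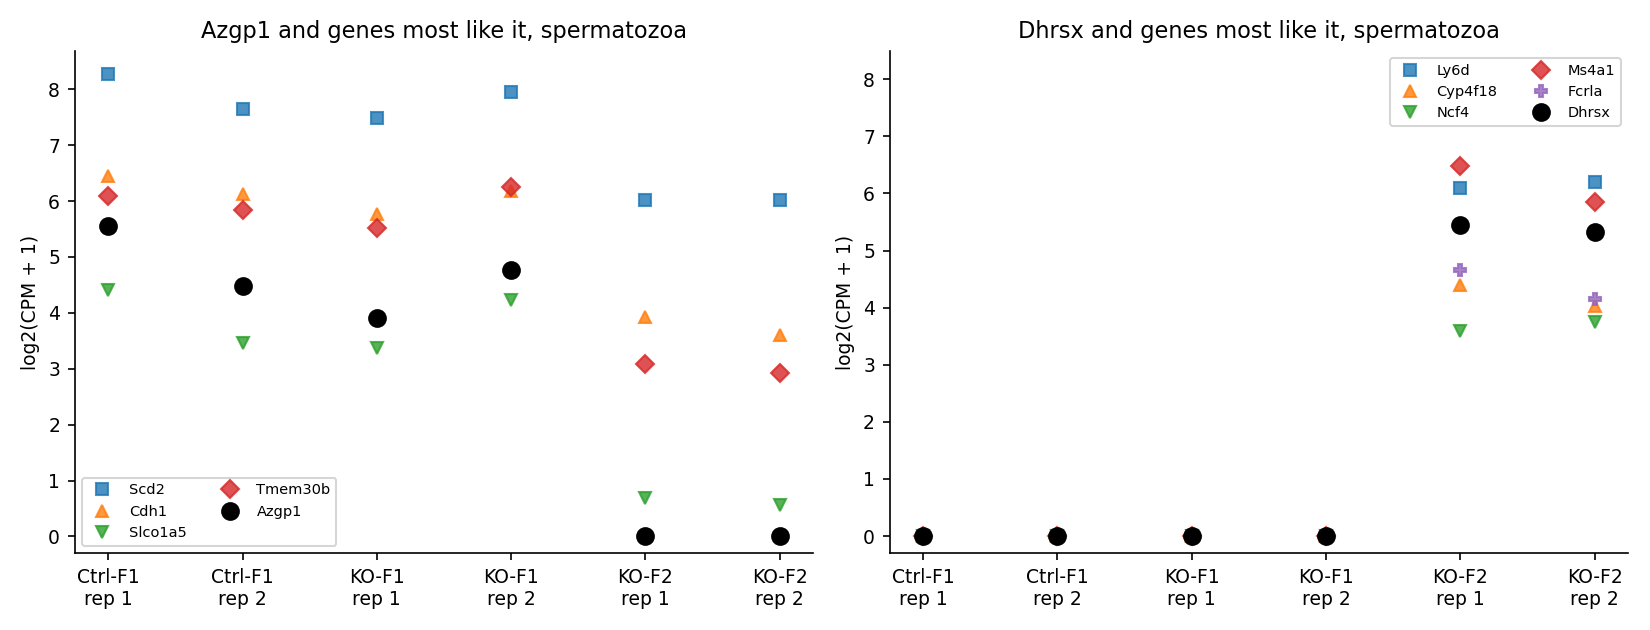
Levels of Azgp1 (left, black) and Dhrsx (right, black) with genes most like each (4 and 5 genes), as log2(CPM + 1) in the 6 sperm libraries. The genes alongside Azgp1 are lower in both KO-F2 libraries but above 0, and those alongside Dhrsx are at 0 in all 4 F1 libraries, where the points overlie one another.

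Genes next to Azgp1 on chromosome 5 gave little to compare with. Of the 3 nearest listed genes on either side, Gjc3 and Smok3b had 0 counts in all 6 sperm libraries, and Cyp3a13, Pilrb2 and Smok3a had at most 2 counts in any F1 sperm library. Cyp3a13 had 0 and 11 counts in KO-F2, Pilrb2 33 and 63, and Smok3a 5 and 3. Zkscan1, 94817 bases downstream, was at 13.2 to 29.7 CPM in F1 and 6.54 and 9.54 CPM in KO-F2 spermatozoa, so it was present where Azgp1 was at 0.

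A place outside the assembled chromosomes was common to Dhrsx and a few other measured genes, which were examined after the values of Dhrsx were seen. The count tables list 17 genes that RefSeq places only on unlocalized or unplaced scaffolds of the C57BL/6J assembly. Of these, 12 had no count in any of the 10 libraries, and 4 had at least 100 counts in every liver and at least 10 in both KO-F2 sperm libraries: Dhrsx, Pisd-ps3, Vamp7 and Tmlhe. All 4 had 0 counts in all 4 F1 sperm libraries. They do not share one location: the scaffold of Dhrsx is assigned to chromosome 4, Vamp7 and Tmlhe to the X chromosome and Pisd-ps3 to no known chromosome. The remaining gene, 4933409K07Rik, had 1 count in 1 Ctrl-F1 sperm library and none elsewhere.

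Pisd-ps3, a pseudogene related to phosphatidylserine decarboxylase, had 141 to 263 counts in the livers and 148 and 133 in KO-F2 spermatozoa. Vamp7, a vesicle fusion protein gene, had 246 to 441 in the livers and 65 and 33 in KO-F2 spermatozoa. Tmlhe, which encodes the first enzyme of carnitine synthesis, had 156 to 312 in the livers and 25 and 14 in KO-F2 spermatozoa. At their mean KO-F2 levels the F1 sperm libraries would have held 21.6 to 40.0 counts of Pisd-ps3, 7.22 to 13.3 of Vamp7 and 2.90 to 5.35 of Tmlhe. Among all 6226 genes with at least 100 counts in every liver and at least 10 in both KO-F2 libraries, 27 (0.434%) had 0 counts in all 4 F1 sperm libraries, and these 4 scaffold genes were among them. Whether the reads of the F1 sperm libraries were aligned to, or counted on, a reference that holds these scaffolds was not tested. What the tables give is that Dhrsx is listed at 0 in F1 spermatozoa.

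**Figure D3:**
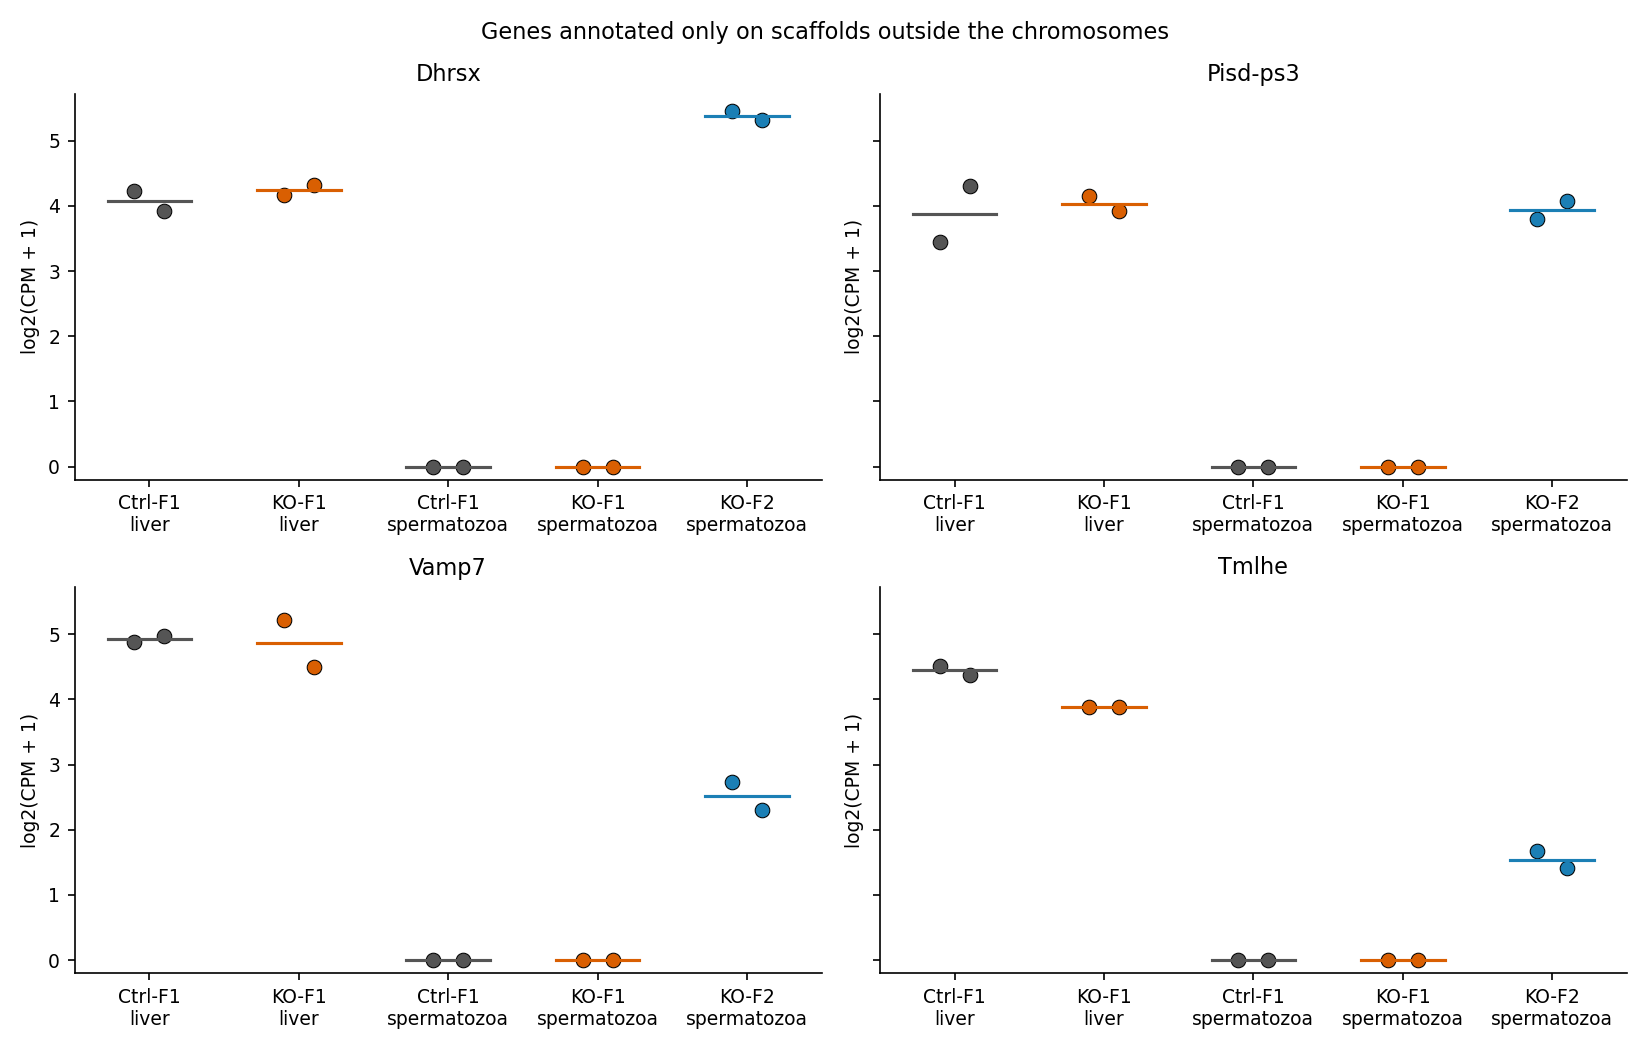
Levels of Dhrsx, Pisd-ps3, Vamp7 and Tmlhe, annotated only on scaffolds outside the assembled chromosomes, as log2(CPM + 1) in the 10 libraries; points are libraries and lines are means of the 2 libraries. All 4 genes are present in liver and in KO-F2 spermatozoa and at 0 in the 4 F1 sperm libraries.

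Generation, strain background label, way of conception and form of the deposited table change together between the F1 and KO-F2 sperm libraries. The deposited liver tables carry one run label, the KO-F2 sperm tables another, and the F1 sperm tables none. Whether the F1 and KO-F2 sperm libraries were sequenced in different runs is therefore not known. Generation, background, conception and any difference of run cannot be told apart for either gene. Ctrl-F1 and KO-F1 spermatozoa share the background label, conception by ICSI and form of table, and within them both genes were on the same side: Azgp1 present in 4 of 4 libraries and Dhrsx at 0 in 4 of 4.

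Strain background was followed through 6 genes known to differ between C57BL/6 and DBA/2 mice. Nnt is a mitochondrial transhydrogenase gene that is partly deleted in C57BL/6J. Its sperm level was 0.824 and 0.665 CPM (2 and 1 counts) for Ctrl-F1 against 15.1 and 19.2 CPM for KO-F1. Both KO-F2 sperm libraries were at least at 10.5 CPM. The liver counts of Nnt did not show this difference: 879 and 974 for Ctrl-F1 against 879 and 519 for KO-F1 (log2 fold change -0.09, SE 0.20). Ifi202b, an interferon-inducible gene known to be silent in C57BL/6, had 0 counts in both tissues of Ctrl-F1, 45 and 31 in KO-F1 liver, and was at 5.40 and 10.1 CPM in KO-F1 and 2.01 and 1.07 CPM in KO-F2 spermatozoa. Neither was called between Ctrl-F1 and KO-F1, which carry the same background label, nor was any other gene (0%). Gpnmb, which carries a stop codon in DBA/2J, was at 196 to 349 CPM in the 4 F1 sperm libraries against 52.9 and 49.1 CPM in KO-F2, with log2 fold changes of -1.93 in KO-F2 against KO-F1 and -2.88 against Ctrl-F1. It ranked 10 among the genes most like Azgp1, with a Pearson's r of 0.984. Glo1, duplicated in DBA/2J, was at 12.6 to 96.8 CPM in F1 and 25.0 and 24.0 CPM in KO-F2. Hc had 0 counts in every sperm library and Klrd1 at most 7 counts in any library. No member of this list was called in any of the 4 comparisons. Only KO-F2 against KO-F1 had any call at all (2.31% of all genes tested, 0% in the others). The part of strain background in the levels of Azgp1 and Dhrsx was not tested.

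Markers of other cells moved between generations too. The summed level of 12 leukocyte markers (Ptprc, Lyz2, Cd74 and others) was 299 to 679 CPM in Ctrl-F1, 313 to 493 CPM in KO-F1 and 3802 to 5240 CPM in KO-F2 spermatozoa. All 12 were tested in KO-F2 against KO-F1, all were higher, with a median log2 fold change of 3.70 beside 0.13 for all genes, and edgeR called 7 (2.31% of all genes tested were called), among them Ptprc, Lyz2, Cd14, Cd74, Tyrobp and Laptm5. Each F1 sperm library had 9 of the 12 at 10 counts or more, and none of Dhrsx. In liver the sum was lower, at 108 to 249 CPM, while Dhrsx was 14.2 to 19.0 CPM. The part of leukocyte RNA in the level of Dhrsx was not tested.

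The 22 markers of epididymal epithelium (Crisp1, Adam7, Spink8 and others) summed to 7647 to 22320 CPM in Ctrl-F1, 15638 to 15998 in KO-F1 and 1940 to 3905 in KO-F2 spermatozoa, so their sum was lowest where Azgp1 was at 0. The list did not move as 1 block: of 19 tested in KO-F2 against KO-F1, 8 were higher and 11 lower, with a median log2 fold change of -1.08, and none was called by edgeR. In KO-F2 against Ctrl-F1, 8 of 17 were higher and 9 lower, with a median of -0.09, and none was called, nor was any other gene (0%). Crisp1, the most abundant, reached 18255 and 5448 CPM in the Ctrl-F1 libraries, 9227 and 11544 CPM in those of KO-F1 and 2856 and 1260 CPM in those of KO-F2, with log2 fold changes of -1.91 in KO-F2 against KO-F1 and -2.63 against Ctrl-F1. The part of epithelial RNA in the level of Azgp1 was not tested. Hepatocyte markers, which stand for the tissue richest in Azgp1 here, summed to at most 5.15 CPM in any sperm library.

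The late spermatogenesis markers summed to 119093 to 133579 CPM in Ctrl-F1, 44269 to 59337 in KO-F1 and 148400 to 151672 in KO-F2 spermatozoa. KO-F1 libraries were thus the lowest. The part of germ cell RNA in the levels of Azgp1 and Dhrsx was not tested. In KO-F2 against KO-F1 all 16 were higher, with a median of 2.40 beside 0.13 for all genes, and Tnp1 and Gapdhs were called, as were 2.31% of all genes tested. In KO-F2 against Ctrl-F1 11 of 16 were higher, with a median of 0.22 beside 0.07 for all genes, and none was called. In KO-F1 against Ctrl-F1 all 15 tested were lower, with a median of -1.81, and none was called. In both comparisons with Ctrl-F1 0% of all genes tested were called.

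**Figure D4:**
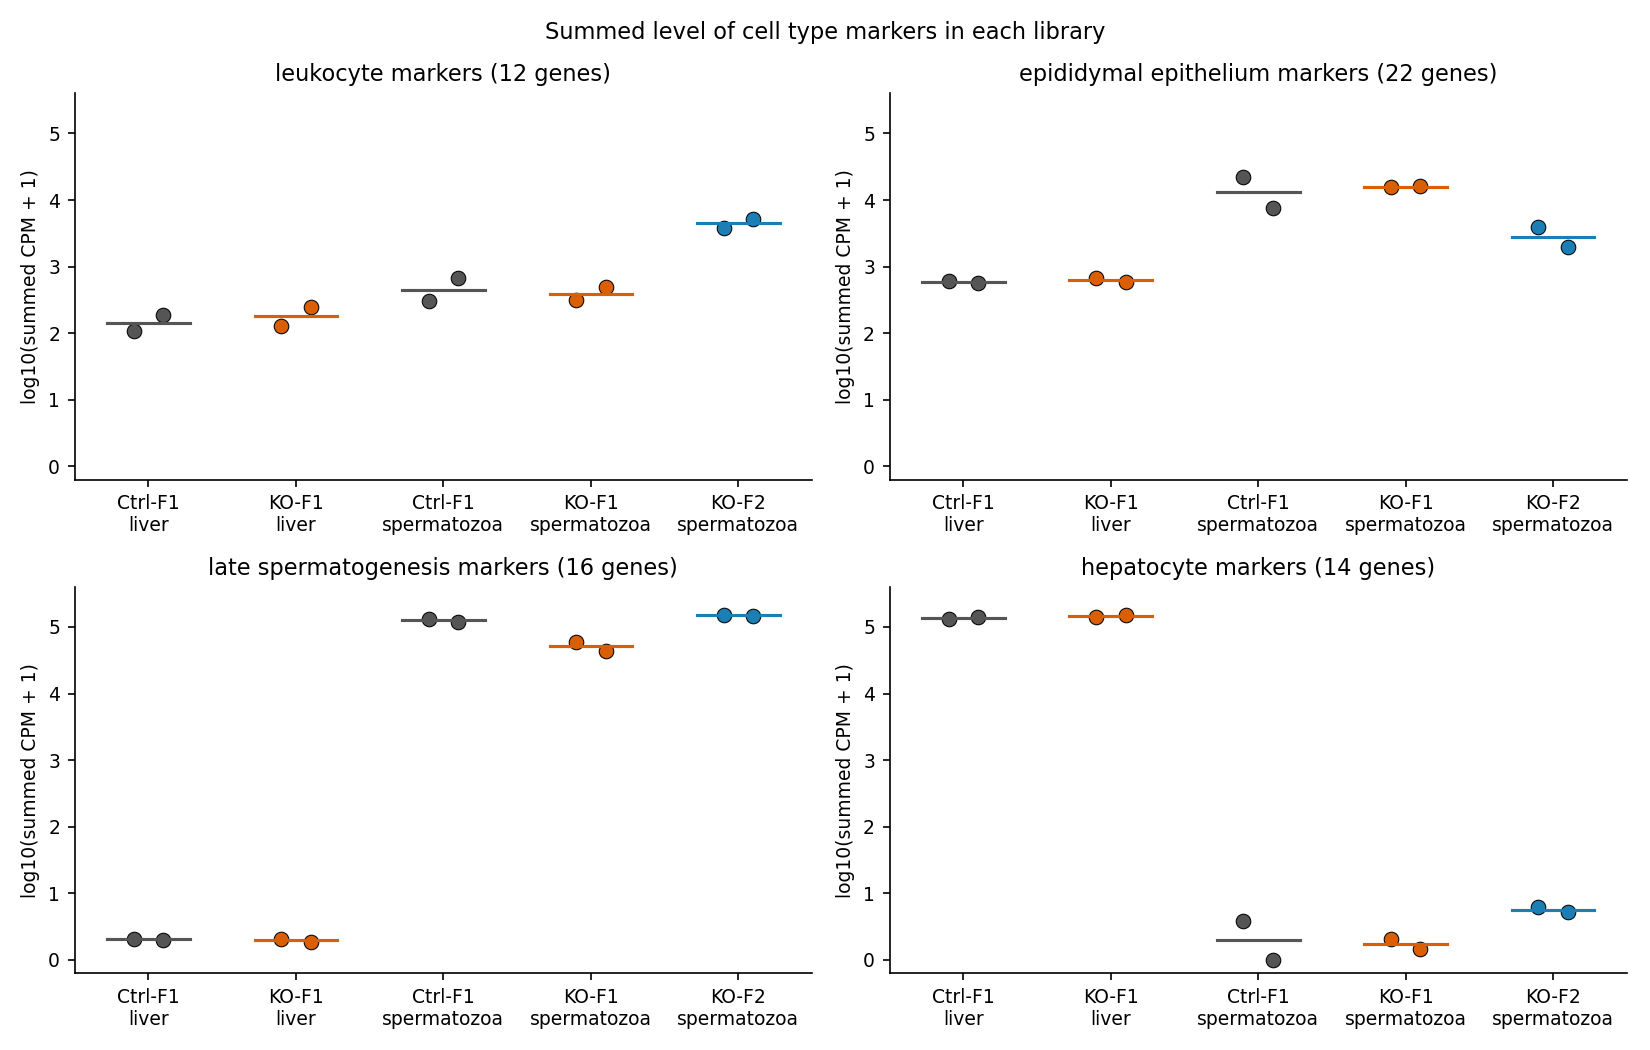
Summed CPM of 4 lists of cell type markers in each of the 10 libraries, as log10(summed CPM + 1); points are libraries and lines are means of the 2 libraries on this scale. The leukocyte sum is highest in KO-F2 spermatozoa, and the hepatocyte sum is near 0 in all sperm libraries. The epididymal sum is higher in F1 than in KO-F2 spermatozoa, although 8 of 19 markers tested were higher in KO-F2 than in KO-F1.

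The other genes of the pathways in which the 2 members act were followed as lists. Of all genes tested, edgeR called 0% in liver, in KO-F1 against Ctrl-F1 and in KO-F2 against Ctrl-F1 spermatozoa. No list could hold a call in those comparisons. In KO-F2 against KO-F1 spermatozoa it called 2.31%. Beside Azgp1, 10 genes of the MHC class I fold and its partner were followed. In KO-F1 liver 8 of the 9 that could be tested were above Ctrl-F1 and 1 below, their median log2 fold change was 0.28 beside -0.01 for all genes, and none was called. In KO-F2 against KO-F1 spermatozoa 6 of 9 were higher and 3 lower, with a median of 0.77, and none was called. B2m, the light chain shared by class I molecules, was at 824 to 2442 CPM in F1 and 633 and 402 in KO-F2 spermatozoa, and H2-D1 at 96.8 to 211 CPM in F1 and 254 and 288 in KO-F2. In KO-F2 against Ctrl-F1 5 of 10 were higher, with a median of -0.25. In KO-F1 against Ctrl-F1 spermatozoa 3 of 7 were higher and 4 lower, with a median of -0.51, and none was called.

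Of 14 lipolysis genes, 6 were above and 8 below Ctrl-F1 in KO-F1 liver (median -0.07), and none was called. In KO-F2 against KO-F1 spermatozoa 8 of 12 were higher, with a median of 0.54, and in KO-F1 against Ctrl-F1 5 of 12 were, with a median of -0.14. None was called in either. Lipe, the hormone-sensitive lipase gene, was at 274 and 216 CPM for Ctrl-F1, 82.1 and 137 CPM for KO-F1 and 298 and 256 CPM for KO-F2 spermatozoa, with a log2 fold change of 0.02 in KO-F2 against Ctrl-F1. Acsl1, which activates fatty acids, was at 661 and 777, 361 and 343, and 798 and 1276 CPM in the same order, with a log2 fold change of 0.35. Over the list, 9 of 11 were higher in KO-F2 than in Ctrl-F1, with a median of 0.24. Adrb3, the adrenergic receptor of adipocytes, had 0 counts in all 6 sperm libraries.

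All 14 genes of dolichol synthesis and use were tested in every comparison and none was called. The list's median log2 fold change was 0.08 in liver, 0.68 in KO-F1 against Ctrl-F1 and -0.23 in KO-F2 against KO-F1 spermatozoa, with 9, 9 and 4 of 14 higher, and it was -0.12 in KO-F2 against Ctrl-F1, with 6 higher. Dhdds and Nus1, the subunits of the enzyme that builds the polyprenol chain ahead of the step of Dhrsx, were at 2.00 to 30.2 and 5.99 to 60.5 CPM in F1 spermatozoa, where Dhrsx had no count. Srd5a3, which acts beside Dhrsx in the reduction of polyprenol, was at 0 to 13.3 CPM in F1 and 5.67 and 10.4 in KO-F2 spermatozoa.

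Among 10 other DHRS dehydrogenases, 7 were tested in liver (4 higher and 3 lower, median 0.00) and 6 in spermatozoa. From Ctrl-F1 to KO-F1 spermatozoa all 6 had positive log2 fold changes (median 0.30), and 3 of 6 were higher in KO-F2 than in KO-F1, with a median of 0.14, and 4 of 6 were higher than in Ctrl-F1, with a median of 0.40. None was called in any comparison. Dhrs1 was at 19.95 to 65.5 CPM in F1 and 38.3 and 35.4 in KO-F2 spermatozoa, and Dhrs4 at 16.0 to 85.7 CPM in F1 and 21.0 and 20.5 in KO-F2, so both were present in all 6 libraries. Dhrs13 came closest to the pattern of Dhrsx, with 0 counts in the F1 libraries and 10 in each KO-F2 library, which is near or below what 3 counts amount to in an F1 library.

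The human counterpart of Dhrsx is pseudoautosomal, and 9 genes listed as mouse counterparts of other human pseudoautosomal genes were followed. Mid1 and Erdr1 among them are not such counterparts in the strict sense, and had at most 1 count in any sperm library. The list is not complete: Vamp7, a further such counterpart with 0 counts in all 4 F1 sperm libraries, is outside it. In liver 5 genes of the list were tested, 4 higher and 1 lower, with a median of 0.52 and none called. In KO-F1 against Ctrl-F1 spermatozoa 1 of 5 was higher, with a median of -0.45 and none called. In KO-F2 against KO-F1 spermatozoa 3 of 6 were higher, with a median of 0.49. Il3ra, a cytokine receptor chain of leukocytes, was called (log2 fold change 3.38, SE 0.48, adjusted p 0.00970 in the edgeR test). Of all genes tested there, 2.31% were called. Il3ra was at 5.76 to 30.6 CPM in F1 and 73.0 and 56.5 in KO-F2 spermatozoa, and Crlf2 at 8.64 to 17.3 CPM in F1 and 19.2 and 20.9 in KO-F2. In KO-F2 against Ctrl-F1 3 of 6 were higher, with a median of 0.22. In KO-F2 against Ctrl-F1 spermatozoa no member of any of these lists was called, where edgeR called 0% of all genes tested.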

How the data were processed

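The raw read counts per gene symbol were those the authors deposited, 1 table per library. Per the study's methods, reads of 75 bases, single-end, were aligned to GRCm38 with HISAT2 (2.1.0 in the submitters' processing notes), and uniquely aligned reads were counted with featureCounts. The annotation and strand setting are not given in the sources used here. Liver was sequenced as mRNA, spermatozoa as cDNA amplified by PCR. Symbols listed more than once were left out, which kept 23416 genes.

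Each pair of groups was fitted across all genes with edgeR 4.0.16 in R 4.3.3 (TMM, filterByExpr with a minimum count of 10 and a minimum total of 15, quasi-likelihood F test, Benjamini-Hochberg adjustment), checked on simulated data. Calls needed a fold change of 2 and an adjusted p under 0.01, the study's thresholds. With 2 libraries against 2, an exact permutation test cannot give a two-sided p below 0.333. A group at 0 was set to 3 counts per library, and the ratio of group means of TMM-normalized CPM given as a lower bound on that scale. Similar sequence was searched with blastn 2.17.0. The members and gene lists were chosen with earlier results of these data known. Named genes were the members, the all-or-none genes with the largest ratios (up to 10 per pattern), the 5 most alike, the 3 nearest listed genes on either side and the most abundant or called members of each list. Vamp7, Tmlhe, Pisd-ps3, 4933409K07Rik, Rps7, Dhrs13 and others singled out in the lists for their values were named after those were seen. Some genes that meet this rule are not reported here. ChIP-seq and embryo samples were not analysed here.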

Additional observations from a re-analysis of the deposited data

How the results depend on the processing

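The log2 fold changes of Azgp1 and Dhrsx in liver kept their sign and stayed below the threshold under all 9 alternatives each. In KO-F1 against Ctrl-F1 spermatozoa, Azgp1 turned from -1.12 to 0.81 with libraries scaled to the late spermatogenesis list, and kept its sign under the other 9. With that scaling the bounds became -7.98 for Azgp1 and 3.05 for Dhrsx in KO-F2 against KO-F1, and 4.07 for Dhrsx in KO-F2 against Ctrl-F1. On CPM without TMM, added after the data were seen, the bounds of Dhrsx were 5.02 and 4.66 in that order. With all 3 sperm groups in 1 model Dhrsx was 5.25 in KO-F2 against KO-F1. Leaving out 1 library at a time gave 5.13 to 5.69 for Dhrsx against KO-F1 and 4.10 to 5.04 against Ctrl-F1. For Azgp1 it gave -6.11 to -5.06 against KO-F1 and -7.21 to -6.35 against Ctrl-F1. Bounds cannot be recomputed with DESeq2 or with a block, and Dhrsx gave no value between F1 sperm groups.

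Counts of called genes moved more. In liver (0) they were 20 with DESeq2, 25 without a filter and 4 to 107 with 1 library left out. In KO-F1 against Ctrl-F1 spermatozoa (0) they were 390 with DESeq2 and 113 without a filter. In KO-F2 against KO-F1 spermatozoa (312) they were 2058 with DESeq2, 2552 without a filter, 198 in 1 model and 230 to 2898 with 1 library left out, the latter without KO-F1 replicate 2 (1551 without KO-F1 replicate 1). In KO-F2 against Ctrl-F1 spermatozoa (0) they were 277 with DESeq2, 39 without a filter, 2 in 1 model and 35 to 277 with 1 library left out. The cause was not tested. The replicate number as a block gave 2 calls in liver, 0 in KO-F1 against Ctrl-F1, 819 in KO-F2 against KO-F1 and 362 in KO-F2 against Ctrl-F1 spermatozoa, and changed no call of a member. Same-numbered libraries share only a number, and the correlation of their deviations was -0.16, -0.01, 0.06 and 0.16 in the same order. A crossed block in liver, added after the data were seen, gave 0 calls.

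The number of genes absent only from KO-F2 spermatozoa (4) became 2 or 23 with an absence limit of 1 or 5 CPM, and 15 or 1 with presence from 5 or 20 CPM. The number present only there (37) became 22 or 94, and 105 or 9. Depth limits the F1 sperm libraries most, where levels under 1.08 to 2.00 CPM fall below 3 counts.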
